A study of Mus musculus with 4 samples.

Results

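Complement inhibitors and components were followed in distal convoluted tubule fragments of mice on a low or a high magnesium diet. The 8 genes are Cd55, Cd59a, Cd46, Cr1l, Cfi, Cfb, C3 and C4b, and they carried 11 of the 39429 gene probes and 8 of the 21713 gene symbols on the array. They were chosen by name, every probe with one of these symbols being taken, and the set was put together because the ratio of Cd55 between the diets was known to be large. The ratios of the members are therefore given as a description, with no p-value. How many member probes passed the threshold is printed only beside the share of all probes, and nothing is read from it. Tests are given for the other complement genes and for the dye term of the fit.

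Low-diet mice ate 0.02% magnesium by weight and high-diet mice 0.48%, both for 15 days. All mice of both diets carried a transgene in which the parvalbumin promoter drives eGFP (PV-eGFP), had the B6D2F2 background, and were 6 to 8 weeks old at isolation. B6D2F2 mice are an F2 of C57BL/6 and DBA/2, so littermates can differ in the alleles they carry. Fluorescent fragments were sorted, and each RNA sample was a pool of 4000 of them, amplified in a double round before it was labelled. The 8 samples, 4 of each diet, made 4 littermate pairs with 1 array each. By the numbers in the labels, L for low and H for high diet, these were H1 with L1, H3 with L2, H7 with L7 and H8 with L8, written H1/L1 and so on, and the 4 values of a gene are always listed in this order. Low-diet RNA carried Cy3 on H3/L2 and H8/L8, while on the other two arrays it carried Cy5. It is not stated whether 1 mouse or several gave a sample, so the spread between pairs may be partly technical.

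Complement is a chain of plasma proteins that tags surfaces for uptake and can end in a pore through the cell membrane. It starts by the classical, lectin or alternative route, all of which build C3 convertases, enzymes that split C3 so that its larger fragment binds to nearby surfaces. Host cells hold this in check with membrane proteins that take convertases apart, serve as cofactors for the protease factor I, or block the pore. The kidney is a site of complement-mediated injury, and tubule cells both make complement components and carry these inhibitors.

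All 12 markers of the distal convoluted tubule on the list used were above background in all 8 samples. Of the 12, 7 passed the threshold as higher on the low diet and 0 as lower, against 7.82% of named genes in either direction. Their summed level was 121956 to 131204 in the low-diet samples and 61493 to 112774 in the high-diet samples. One of the 7 was Pvalb, whose promoter drives the reporter used for sorting. The others were Kl, Calb1, Trpm6, Egf, Wnk1 and Cnnm2. The list was split, as the remaining markers did not pass. Their mean log2 ratios of low over high diet were 0.13 for Slc12a3 and 0.05 for Emx1. Klhl3, Fxyd2 and Stk39 were at -0.18, -0.26 and -0.17. Markers of other segments were also present, with 24 of 25 proximal tubule and 9 of 9 thick ascending limb markers above background in all 8 samples. In such bulk samples, fewer cells of a type and less RNA per cell cannot be told apart. Above background means a net signal, the mean spot signal minus the local background, above the 99th percentile of 604 spots of a dim control. By that measure 65.5% to 97.4% of probes were above background in the low-diet samples and 85.1% to 96.2% in the high-diet samples. The lowest share belonged to L8, where the dim control itself had a median net signal of 34.5, against 3.03 to 8.57 in the other 7 samples.

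Of the 11 member probes, 9 were above background in all 8 samples, and each of the 8 genes had at least 1 such probe. None had a saturated spot. The exceptions were the dimmer Cd46 probe, above background in 2 low-diet and 1 high-diet samples, and the dimmer C4b probe, above background in 3 low-diet and 4 high-diet samples. Ratios are log2 of low over high diet after background correction and loess, so that 1 is a doubling on the low diet, and brackets after a mean give the SD over the 4 pairs. A gene with several probes is represented by the one with the highest mean brightness.

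The promoters of Cd55 and of its neighbouring duplicate Cd55b are shown first, because the array holds separate probes for both copies and their ratios are set beside each other further on. Each window runs from 250 bases before to 50 after the gene's start in RefSeq, on GRCm38.p6, and is read 5′ to 3′ on the minus strand, on which both genes lie. The window of Cd55 is chr1:130462695-130462994 and that of Cd55b is chr1:130422994-130423293. Capitals mark matches to 4 of the motifs that were searched on both strands.
Cd55: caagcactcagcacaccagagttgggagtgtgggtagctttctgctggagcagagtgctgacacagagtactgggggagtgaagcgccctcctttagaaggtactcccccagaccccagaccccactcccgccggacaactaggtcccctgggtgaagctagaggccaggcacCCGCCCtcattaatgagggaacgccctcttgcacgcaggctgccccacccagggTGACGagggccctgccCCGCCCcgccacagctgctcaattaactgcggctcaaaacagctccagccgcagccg
Cd55b: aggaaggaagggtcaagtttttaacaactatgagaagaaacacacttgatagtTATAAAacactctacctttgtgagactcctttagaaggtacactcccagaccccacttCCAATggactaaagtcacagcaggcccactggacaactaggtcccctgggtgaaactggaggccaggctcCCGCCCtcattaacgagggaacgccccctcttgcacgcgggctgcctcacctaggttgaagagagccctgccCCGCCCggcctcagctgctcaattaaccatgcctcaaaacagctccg
The Cd55 window held 2 GC boxes (GGGCGG), both on the opposite strand, starting 77 and 7 bases before the start site, and 1 match to TGACG, the core of the cAMP response element (CRE), starting 23 bases before it. The Cd55b window also held 2 GC boxes, with a TATA box (TATAAA) and a CAAT box (CCAAT) further upstream, and no match to TGACG. Neither window matched the GAS element (TTCNNNGAA) or the NF-kB motif (GGG, any 2 bases, TTTCC), and no matches overlapped. Among 32851 mouse windows of the same length, GGGCGG was present in 35.7%, TGACG in 20.8%, CCAAT in 37.4%, TATAAA in 13.6%, TTCNNNGAA in 8.3% and the NF-kB motif in 1.63%. The aligned parts of the Cd55 and Cd55b windows were identical at 225 of 267 bases, or 84.3%. A window was available for 5 of the 8 members, and in the other four, Cd59a, Cd46, Cr1l and C3, no GC box was found.

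Cd55, also called decay-accelerating factor, is a lipid-anchored membrane protein that speeds the breakdown of C3 convertases. Its 1 probe had a net signal of 252, 207, 220 and 327 in the low-diet samples L1, L2, L7 and L8, against 28.3, 34.3, 17.1 and 41.6 in the high-diet samples H1, H3, H7 and H8. Every low-diet sample was brighter than every high-diet sample, and all 8 were above background. The plain ratio of these net signals, with no normalization, was 8.90, 6.03, 12.8 and 7.86 in the 4 pairs.

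**Figure D1:**
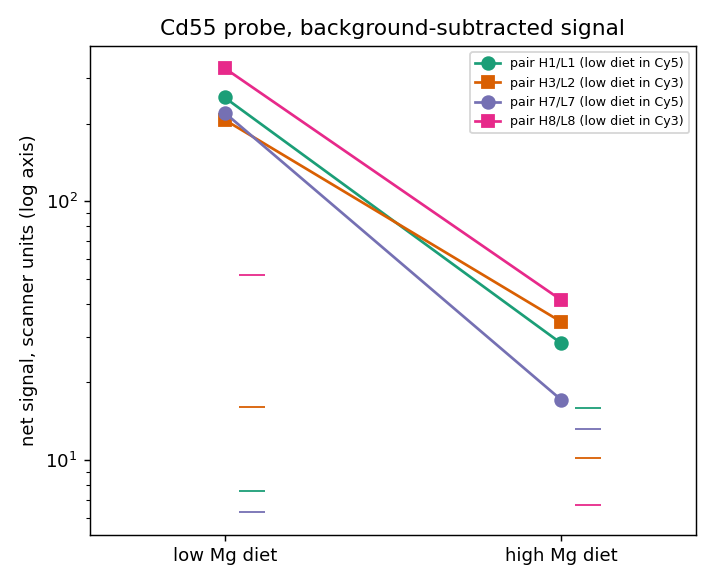
Net signal of the Cd55 probe (mean spot signal minus local background, log axis) in each sample, low-diet samples on the left and high-diet samples on the right. Lines join littermates on one array, short dashes mark each sample's above-background threshold, and all low-diet values (207 to 327) lie above all high-diet values (17.1 to 41.6).

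After normexp correction with an offset of 50 and loess, the log2 ratio of Cd55 was 1.32, 2.08, 0.75 and 2.21 in the 4 pairs, with a mean of 1.59 (SD 0.69, n = 4), or 3.01-fold. The normalised log2 level averaged 8.35 ± 0.29 in low-diet and 6.76 ± 0.48 in high-diet samples (SD, n = 4 each), with no overlap. Only 4 of the 39429 probes had a mean ratio further from 0. The pair H7/L7 had the lowest normalised ratio although it had the highest ratio of net signals.

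The size of the Cd55 ratio differed with the handling of the background. Plain subtraction of the local background gave 8.19-fold. Normexp without an offset gave 5.19-fold, and subtracting the median of the dim control gave 11.2-fold. The authors' processed values, whose normalization is not stated, gave 4.17-fold, and their 4 ratios were 1.86, 2.09, 2.24 and 2.05, a narrower spread than in the normexp ratios. The ratio was above 0 in all 4 pairs under each of these settings.

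**Figure D2:**
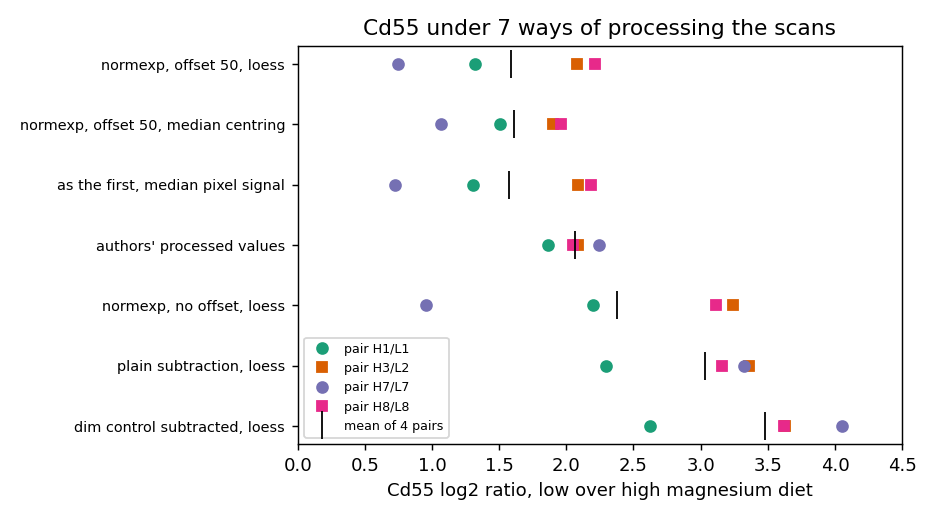
Log2 ratio of low over high diet for Cd55 in each of the 4 pairs (points) under 7 ways of processing the scans, one per line, with the mean as a bar. All points lie above 0, and the mean runs between 1.58 with the median pixel signal and 3.48 with the dim control median subtracted.

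Cd59a, a lipid-anchored protein that keeps the membrane attack pore from forming, had ratios of 0.08, -0.08, -0.01 and -0.03 and a mean of -0.01 (SD 0.07, n = 4). Its net signal was 339, 179, 226 and 277 in L1, L2, L7 and L8, against 160, 340, 175 and 389 in H1, H3, H7 and H8. The diets overlapped, and the brighter sample of each pair was the one in Cy5, whichever diet it came from. Cd59b lies next to Cd59a on chromosome 2 and is a close copy of it, so signal may be shared between their probes.

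Cd46, membrane cofactor protein, helps factor I to cut C3b and C4b and in the mouse is known mainly from testis. Its brighter probe had ratios of 0.04, 0.02, 0.04 and -0.02, with a mean of 0.02 (SD 0.03, n = 4). The net signals were 41.8 to 85.6 in low-diet and 43.4 to 65.7 in high-diet samples. Its dimmer probe averaged -0.00 (SD 0.03, n = 4).

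Cr1l, known as Crry in the mouse, is a membrane protein of rodents that both disassembles convertases and acts as a cofactor for factor I. It was the member probe with the highest net signal, at 1728, 915, 968 and 1325 in L1, L2, L7 and L8 and 964, 1392, 906 and 1742 in H1, H3, H7 and H8. The ratios were -0.10, 0.24, -0.31 and 0.16, and their mean was -0.00 (SD 0.25, n = 4). The 2 pairs with the low-diet sample in Cy5 were below 0 and the 2 with it in Cy3 above 0. Cr1l lies between Cd46 and Cr2 on chromosome 1, and it resembles Cr2 in sequence.

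Cfi is factor I, the serine protease that inactivates C3b and C4b, and is made mainly in liver. Its ratios were -0.56, -0.34, 0.01 and 0.10, with a mean of -0.19 (SD 0.31, n = 4). The net signals were 72.7, 25.6, 37.9 and 57.3 in L1, L2, L7 and L8, against 79.3, 68.6, 29.5 and 33.9 in H1, H3, H7 and H8, so the diets overlapped. In L8 the Cfi signal lay little above the background threshold of that sample, 52.0. Cfb is factor B, the part of the alternative pathway's C3 convertase that carries the protease. Its ratios followed the same order of pairs, at -0.47, -0.30, -0.00 and 0.08, with a mean of -0.17 (SD 0.25, n = 4). The net signals of Cfb were 137, 58.4, 70.5 and 93.1 in L1, L2, L7 and L8, against 116, 140, 55.1 and 90.3 in H1, H3, H7 and H8, again with overlap.

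Markers of the proximal tubule, and to a smaller extent of endothelium, had the same order of low and near-0 pairs as these 2 genes. The median ratio of 25 proximal tubule markers was -0.94, -0.58, -0.08 and 0.00 in the 4 pairs, and 22, 22, 16 and 12 of the 25 were below 0. Their summed level was 10247, 9448, 8039 and 8717 in L1, L2, L7 and L8, against 19380, 14669, 8928 and 9263 in H1, H3, H7 and H8. Of the 25 markers, 24 were above background in all 8 samples and 0 were below it in all 8. In the all-probe fit 1 of the 25 passed the threshold as higher and 2 as lower on the low diet, against 7.82% of named genes. The median of 12 endothelial markers was -0.16, -0.13, 0.00 and 0.00 in the 4 pairs, with 10 of the 12 above background in all 8 samples and none below it in all 8. Their summed level was 6958 to 8449 in low-diet and 7405 to 11381 in high-diet samples. Other lists also had medians below 0 in H1/L1 and H3/L2 and above 0 in the other pairs. The median of 6 podocyte markers was -0.05, -0.19, 0.04 and 0.19. For 26 genes of tubule injury and the acute phase it was -0.04, -0.03, 0.00 and 0.02. The part of material from proximal tubule, endothelium or podocytes in the Cfi and Cfb ratios was not tested.

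**Figure D3:**
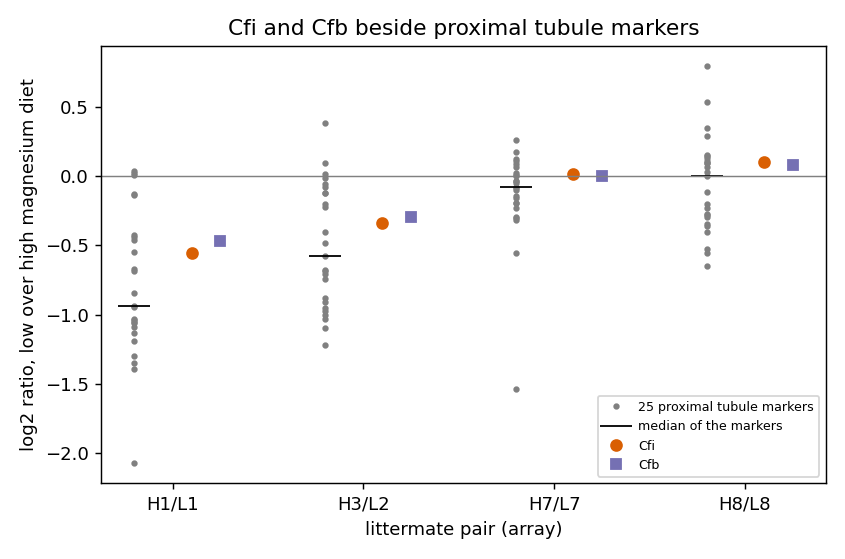
Log2 ratio of low over high diet in each of the 4 pairs for Cfi, Cfb and 25 proximal tubule markers with their median. In H1/L1 and H3/L2 Cfi, Cfb and the marker median are below 0 (-0.56, -0.47 and -0.94 in H1/L1), and in H7/L7 and H8/L8 they lie between -0.08 and 0.10.

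C3, the component on which all routes converge, had 2 probes. The brighter one had ratios of 0.15, 0.05, 0.09 and 0.08 and a mean of 0.09 (SD 0.04, n = 4), or 1.07-fold. Its normalised log2 level was 8.22 ± 0.06 in low-diet and 8.13 ± 0.03 in high-diet samples (SD, n = 4 each), and these normalised levels did not overlap. Its net signals did overlap, at 378, 162, 210 and 216 in L1, L2, L7 and L8, against 168, 274, 142 and 268 in H1, H3, H7 and H8. The dimmer C3 probe had ratios of 0.01, -0.06, -0.04 and -0.08 and a mean of -0.04 (SD 0.04, n = 4), so the probes of this gene differed in sign. C4b, the component that forms part of the C3 convertase of the classical and lectin routes, also had 2 probes. The brighter had ratios of 0.25, 0.13, 0.07 and 0.01 and a mean of 0.12 (SD 0.10, n = 4). Its net signal was 61.6, 27.0, 49.7 and 58.2 in L1, L2, L7 and L8, against 26.0, 29.0, 27.1 and 43.7 in H1, H3, H7 and H8, and the diets overlapped. The L8 value lay little above the background threshold of that sample, 52.0. Plain subtraction of the background gave this probe a mean ratio of 0.40 and the authors' processed values 0.21. The dimmer C4b probe had a mean of 0.01 (SD 0.04, n = 4). C4b has a close copy, C4a, and signal may be shared between them.

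**Figure D4:**
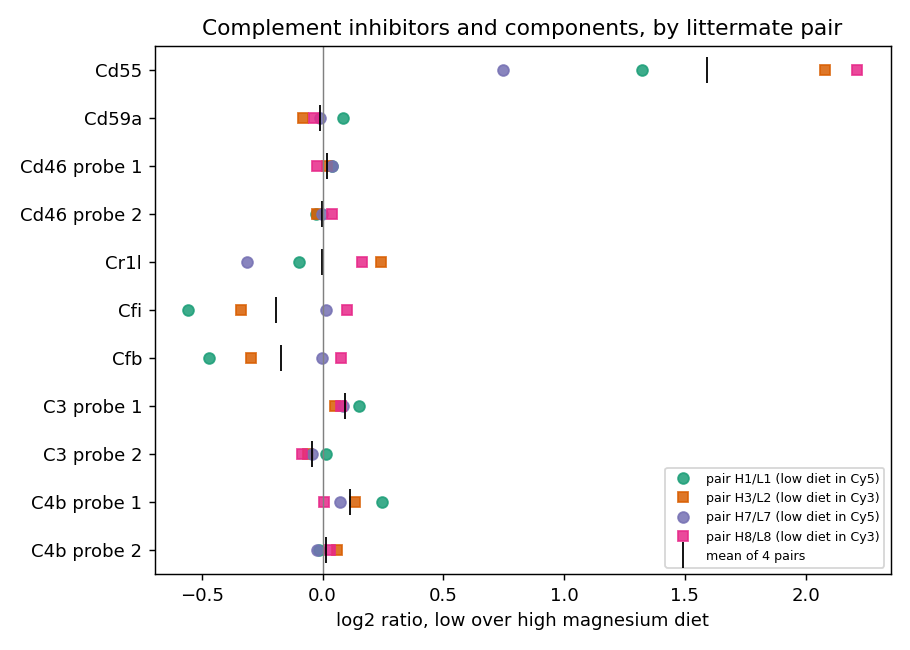
Log2 ratio of low over high diet for the 11 member probes in each of the 4 pairs (points, coloured by pair), with the mean as a bar; probe 1 is the brighter of a gene. Cd55 has a mean of 1.59, while the other 10 probes have means between -0.19 (Cfi) and 0.12 (C4b).

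Set side by side, 7 of the 8 members had a mean ratio within 0.2 of 0, or 87.5%, against 85.6% of all 21713 named genes. The median over the members was 0.01, against 0.00 over all named genes. These values are for the normexp ratios with the offset. Plain background subtraction gave means of -0.35 for Cfi, -0.27 for Cfb and 0.40 for C4b, all more than 0.2 from 0. In the limma fit, 1 of the 11 member probes, that of Cd55, passed an adjusted p of 0.05, while 5.82% of all probes did, and 7.82% of named genes by their brightest probe. Normalised levels of the diets did not overlap for 2 member probes, Cd55 and the brighter C3 probe, against 7.6% of all probes. Ratios had the same sign in 4 pairs for 3 member probes, those 2 and the brighter C4b probe, against 24.6% of all probes. No member passed when H8/L8 was left out, where 225 of all 39429 probes did, or when the dye term was dropped, where 824 did. The same held when the dim control median was subtracted, a setting under which 0 of all probes passed. With the authors' processed values 2 members passed, Cd55 and C4b, where 3232 of all probes did. Nothing is read from any of these counts, since the set was selected on this contrast.

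The authors' deposited table gives its ratios as high over low diet, the opposite direction. For Cd55 it lists -2.06, and only 3 probes in the authors' deposited table have a larger ratio in either direction. Nothing is read from this rank or from the p-values that follow, since the set was selected on this contrast. For the other 10 member probes the authors' deposited table lists a p of 1, as it does for 93.9% of all probes, with 0.22 for Cfi, 0.21 for Cfb and -0.21 for the brighter C4b probe at the outer end.

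The dye term of the fit is independent of the diet contrast, because each diet was in Cy5 on 2 arrays. It also holds any way in which H1/L1 and H7/L7 differed from the other two pairs, and the dye and the pairs cannot be told apart. For Cd55 the dye coefficient was -0.56 (SE 0.10, n = 4), with an unadjusted p of 0.00317 and an adjusted p of 0.143 in limma. The mean ratio of Cd55 was 1.03 over the 2 arrays with the low-diet sample in Cy5 and 2.15 over the 2 with it in Cy3. For Cr1l the coefficient was -0.20 (SE 0.05, n = 4), with an unadjusted p of 0.00764 and an adjusted p of 0.168 in limma. These were 2 of 11 member probes with an unadjusted p under 0.05, against 16.8% of all probes, and 0 of 11 passed after adjustment, against 0.00507% of all probes. In the authors' processed values the dye coefficient of Cd55 was -0.01.

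A further 50 complement genes that are not members were measured. By their brightest probe 0 of the 50 passed the limma threshold in either direction, against 7.82% of named genes, and 9 had an unadjusted p under 0.05, or 18%, against 26.7% of named genes. None of the 50 had a p under 0.05 in the authors' deposited table, where 0.728% of all probes did. All 50 mean ratios were within 0.25 of 0, from -0.22 to 0.24, with a median of -0.02, and 32 of the genes were above background in all 8 samples. Of the 20 genes with several probes, 11 had a dimmer probe of the opposite sign.

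The highest of them was Cr2, the receptor for C3 fragments that is known from B cells, with ratios of 0.04, 0.28, 0.19 and 0.45 and a mean of 0.24 (SD 0.17, n = 4, limma adjusted p = 0.0613). Its dimmer probe, also above background in all 8 samples, had ratios of 0.08, -0.11, -0.01 and 0.10 and a mean of 0.02 (SD 0.10, n = 4, limma adjusted p = 0.879). The brighter probe passed under 3 alternatives: the median pixel signal, the authors' processed values and median centring. Cd59b, the copy of Cd59a, averaged 0.18 (SD 0.12, n = 4, limma adjusted p = 0.117), while its dimmer probe averaged -0.22 (SD 0.16). The other seven with an unadjusted p under 0.05 had negative means. C1ra, a protease of the classical route, was at -0.22 (SD 0.19, n = 4, limma adjusted p = 0.171), with 3 of 4 pairs below 0 and H7/L7 at 0.04. That probe was above background in only 2 low-diet samples and in 4 high-diet samples, and the dimmer C1ra probe averaged -0.02 (SD 0.08). C1qbp, a mitochondrial protein that binds C1q, was at -0.12 (SD 0.04, n = 4, limma adjusted p = 0.0993), with 4 of 4 pairs below 0. Cfp, the stabiliser of the alternative convertase called properdin, Cd93, C6, C3ar1 and Masp2 lay between -0.11 and -0.08, with limma adjusted p between 0.132 and 0.211. C3ar1 had 1 pair above 0, while Cfp, Cd93, C6 and Masp2 had 4 of 4 below 0.

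Of the 6 brightest of the remaining genes, Clu, which codes for clusterin, a secreted inhibitor of the membrane attack pore, averaged 0.12 (SD 0.15, n = 4, limma adjusted p = 0.290) and was above 0 in 3 of 4 pairs. C2, which supplies the protease of the classical convertase and lies next to Cfb on chromosome 17, had ratios of -0.20, -0.17, 0.13 and 0.00. Each of its pairs lay on the same side of 0 as that of Cfi. Itgam, Colec12 and C8g averaged -0.08, -0.07 and 0.01. Leukocyte markers, which could mark infiltrating cells that make complement, gave 0 of 17 measured past the threshold, against 7.82% of named genes. An unadjusted p under 0.05 in limma was found for 3 of the 17, against 26.7% of named genes. Of the 17, 12 were above background in all 8 samples. Their list had a summed level of 5111 to 6051 in low-diet and 5428 to 6226 in high-diet samples.

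**Figure D5:**
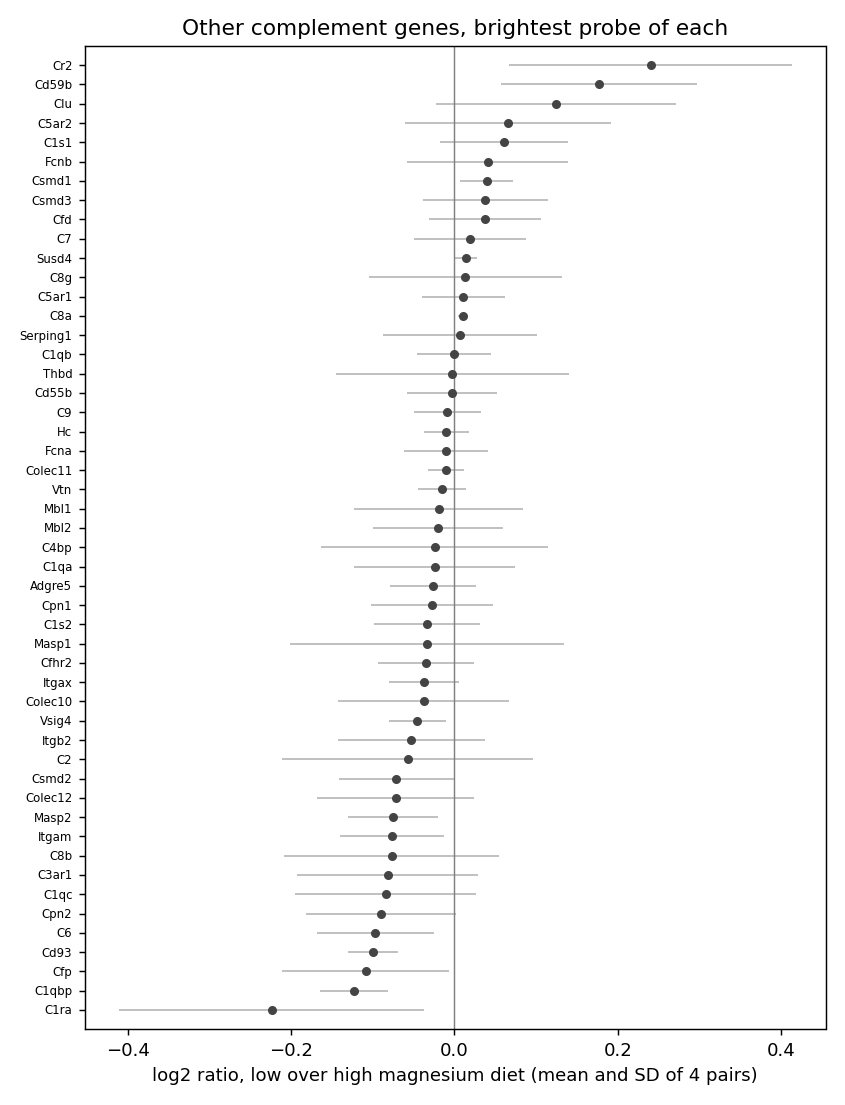
Mean log2 ratio of low over high diet for the 50 other complement genes measured, 1 gene a line by its brightest probe, with the mean as a point and the SD over 4 pairs as a line. All means lie between -0.22 (C1ra) and 0.24 (Cr2), and none passed an adjusted p of 0.05 in limma.

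Cd55b is the copy of Cd55 beside it on chromosome 1 and in the mouse is known from testis. Its brighter probe averaged -0.00 (SD 0.05, n = 4, limma adjusted p = 0.972). Its dimmer probe, picked out after its values were seen, had ratios of 0.46, 0.56, 0.12 and 0.40 and a mean of 0.39 (SD 0.19, n = 4, limma adjusted p = 0.0485), or 1.31-fold. It was the 1 probe of 74 for other complement genes that passed the threshold, and its net signal was 73.8 to 123 in low-diet and 35.0 to 65.9 in high-diet samples. Its adjusted p ran from 0.0162 to 0.177 over the alternatives and did not pass when any 1 pair was left out. H7/L7 had its smallest ratio, as it did for Cd55 in the normexp ratios. In the authors' processed values H7/L7 was instead the highest pair for Cd55, at 2.24. With plain background subtraction it was at 3.32 for Cd55, and H1/L1 was the lowest, at 2.30. Whether this probe takes up Cd55 RNA was not tested, as probe sequences were not used here.

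The other close neighbours of Cd55 among protein-coding genes in RefSeq order did not pass the threshold. Thsd7b averaged 0.02, Cxcr4 0.03, Zp3r 0.01, C4bp, the plasma inhibitor of the classical convertase, -0.02, and Pfkfb2 0.20 (SD 0.11, n = 4, limma adjusted p = 0.106).

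The genes whose 4 ratios were most like those of Cd55 were taken by the root-mean-square difference over the 4 pairs among 21705 genes. The nearest was Ecrg4, which codes for a secreted peptide, at a difference of 0.392, with ratios of 1.09, 1.53, 0.53 and 1.75. H7/L7 was its lowest and H8/L8 its highest pair, the same as for Cd55 in the normexp ratios with the offset. In the authors' processed values H7/L7 was the highest pair for Cd55. With plain background subtraction H1/L1 was its lowest pair, at 2.30, and H7/L7 was at 3.32, so this likeness depends on the processing. The next were Gulo, an enzyme of vitamin C synthesis, at 0.467 with ratios of 1.13, 1.62, 1.43 and 1.82, Prkd1, a protein kinase, at 0.503, Pck1, an enzyme of glucose synthesis, at 0.540, and Dnaja4, a co-chaperone, at 0.573. The mean ratio was 1.57 for Prkd1, 1.55 for Pck1 and 1.67 for Dnaja4. H7/L7 was also the lowest pair for Pck1, while H1/L1 was the lowest for Gulo, Prkd1 and Dnaja4. As they were picked for a large ratio in the same contrast, these values are a description.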

How the data were processed

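The deposited scans give intensities per spot and channel on a linear scale, not background subtracted. The authors' processed log2 ratios are deposited per array; they correlated with the scans at r of 0.790 to 0.886, with medians of 0.0041, -0.0038, -0.0035 and 0.0047 in the order of pairs used in the report, and no source used here states their normalization. The authors' deposited maanova table, per the file headers, lists for each probe an average log2 ratio with a p-value. Its direction, high over low, was found from its r of -1 with the mean of the turned processed values. Whether its p was adjusted is not stated, and 37011 values equal 1.

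Mean pixel signals underwent normexp correction (offset 50) and were normalised by loess within arrays, with the 5791 control spots at weight 0. Ratios were turned to low over high and fitted in limma 3.58.1 (R 4.3.3, statmod 1.5.0) with diet and dye terms, 2-sided, with Benjamini-Hochberg adjustment over 39429 probes at 0.05. The fit has 2 residual and 2.68 prior degrees of freedom. In simulated data with 100 changed probes among 39429, it recovered 99% at a log2 size of 1, with 19 false calls. Calls in the real data differed with the background correction, as given below. Levels are the normalised log2 channel values; summed levels add their linear values. Symbols come from the platform annotation, updated through RefSeq: 32431 probes have 1 symbol, 6998 none and 0 several.

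Members and gene lists were chosen with earlier results of these data known. The control probe behind the above-background calls was replaced after its values were seen. Named were every member probe, other complement genes past the threshold, then with an unadjusted p under 0.05, then the 6 brightest of the rest above background, the 5 genes nearest to Cd55, and injury genes past the threshold. The number of arrays limits the precision. Each array is a littermate pair, so the pairing is in the ratio itself.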

Additional observations from a re-analysis of the deposited data

Results flagged for a closer look

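The normalised log2 level of the brighter C3 probe in L1 was 8.31, against 8.18 to 8.20 in the other low-diet samples, a gap large for 4 values by Dixon's test. It was the 1 such value in 33 groups of 4, where chance gives about 1 in 20. H1/L1 also had the highest ratio of the 4 pairs for this probe, 0.15. The cause was not tested.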

How the results depend on the processing

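The direction of Cd55 was the same under all alternatives run, and its size differed between background corrections. Calls over all probes, 2296 in the limma fit and 59.7% of them higher, were 154 with plain background subtraction (74.7% higher), 824 without the dye term (69.3% higher) and 704 with normexp without an offset (70.0% higher). With the dim control median subtracted 0 passed, with 7396 at an unadjusted p under 0.05. The last 2 settings were chosen after seeing the data. Leaving out 1 pair gave 83 to 863 calls. The members' median was 0.034 with plain subtraction, 0.040 with the dim control median subtracted, and 0.015 to 0.053 without 1 pair. Of other complement genes 1 was called higher, Cr2, with the median pixel signal, the authors' processed values or median centring, and 1 lower, Cd93, with the authors' processed values. Median centring called 7 member probes for the dye term, where 29680 of all probes passed. The mean ratio of Cd55 ran from 1.38 to 1.87 without 1 pair. The cause of these changes was not tested. Fits without 1 pair also had fewer arrays. An offset by its construction draws the ratios of dim signals towards 0. This covers the dimmer probes of Cd46 and C4b, and also Cd55. Its net signals in the high-diet samples, 17.1 to 41.6, were below the offset of 50. Its mean ratio was 3.01-fold with the offset and 5.19-fold without it.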

Other observations

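Of 26 genes of tubule injury and the acute phase, 1 passed the limma threshold as higher on the low diet and 0 as lower. Among all named genes 7.82% passed in either direction. The median ratio of the 26 was -0.00. The 1 gene was Spp1, which codes for the secreted phosphoprotein osteopontin, with ratios of 0.61, 0.32, 0.81 and 0.76 in the 4 pairs and a mean of 0.63 (SD 0.22, n = 4, limma adjusted p = 0.0304). It was higher in 4 of 4 pairs. The summed level of the list was 19532 to 23069 in low-diet and 14654 to 30684 in high-diet samples. Markers of stroma gave 0 of 11 past the threshold in limma with 1 at an unadjusted p under 0.05, endothelium 0 of 12 with 3, podocytes 0 of 6 with 1 and intercalated cells 0 of 12 with 0. Among all named genes 26.7% had an unadjusted p under 0.05 in limma. Principal cell markers gave 1 higher and 1 lower of 13. The lower one was Avpr2, whose ratios of 0.49, -1.28, 0.63 and -1.38 were below 0 in 2 of 4 pairs and followed the dye, with 3 saturated spots. Thick ascending limb markers gave 2 higher and 1 lower of 9.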
